A study of Mus musculus with 12 samples.

Results

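Ionotropic glutamate receptors are the ligand-gated channels that carry fast excitation in the hippocampus, and their subunits were described here in mice with kainate-induced epilepsy that received lipopolysaccharide (LPS) or saline. All probes of 10 subunit genes were taken: Gria1, Gria2, Gria3 and Gria4 of the AMPA receptors, Grin1, Grin2a, Grin2b and Grin2c of the NMDA receptors, and Grik1 and Grik2 of the kainate receptors. A probe was kept if 1 or more groups had all 3 of their arrays well above background for it. This gave 25 of 41174 transcript probes, and all 25 gene-matched probes passed, as did 27681 probes in the whole series. Grin1 and Grin2c had 1 probe each and the other genes had 2 to 5. Probes of 1 gene are given apart.

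The mice were male C57BL/6N of 12 weeks that received 50 nl of 20 mM kainate, itself an agonist of kainate and AMPA receptors, in the left dorsal hippocampus. After 3 weeks they were injected intraperitoneally with LPS (a bacterial outer-membrane component) at 100 µg/kg or with saline. The hippocampus was taken 4 or 24 h later, which gave LPS 4 h, saline 4 h, LPS 24 h and saline 24 h with 3 arrays each. Mice of all groups had thus received kainate and seized recurrently, and a group without kainate is not analysed here. The labels do not state which side was dissected.

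AMPA receptors are tetramers of Gria subunits, and RNA editing of Gria2 keeps most of them impermeable to calcium. NMDA receptors join the obligatory Grin1 with Grin2 subunits that set channel kinetics, Grin2a and Grin2b in forebrain neurons and Grin2c mainly in cerebellum, thalamus and some glia. Kainate receptors built from Grik subunits modulate transmitter release and excitability, among others at mossy fibre synapses in CA3.

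Each probe is a 60-base oligonucleotide. The 5 probes below, at least 1 of each receptor class, are shown as examples. All were called higher at 4 h, and they are given as in the array files with their mm9 positions. Capitals in the Gria1 and Gria3 probes mark bases shared when both are laid side by side without gaps; 43 of 56 overlapping bases (76.8%) were identical, the highest count among the pairs compared. Whether each paralog's transcript also bound the other probe was not tested. Capitals are not used in the other 3 probes.
Gria1 A_51_P498031, chr11:57102930-57102989, plus strand: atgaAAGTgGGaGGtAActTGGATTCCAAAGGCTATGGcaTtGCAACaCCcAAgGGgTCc
Gria3 A_52_P179309, chrX:39007367-39007426, plus strand: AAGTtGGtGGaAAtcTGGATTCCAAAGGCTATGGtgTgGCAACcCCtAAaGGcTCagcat
Grin1 A_52_P69292, chr2:25151568-25151627, minus strand: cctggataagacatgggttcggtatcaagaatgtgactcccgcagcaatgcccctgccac
Grin2b A_52_P248920, chr6:135682925-135682984, minus strand: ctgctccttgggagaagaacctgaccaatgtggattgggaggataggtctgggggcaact
Grik2 A_52_P270135, chr10:48852545-48852604, minus strand: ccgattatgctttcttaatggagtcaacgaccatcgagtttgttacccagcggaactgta

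Levels are log2 signals relative to the 75th percentile of the same array, so 0 is that percentile and a difference of 1 is a doubling. They compare arrays for 1 probe and not probes with each other. That percentile was 633 to 700 intensity units in LPS 4 h, 352 to 376 in saline 4 h, 687 to 903 in LPS 24 h and 711 to 832 in saline 24 h. The share of transcript probes above background was 58.2 to 61.4%, 53.9 to 55.0%, 69.0 to 70.9% and 65.1 to 66.4% in the same groups. The 4 h arrays and the 24 h arrays were scanned on 2 different days, so time and scan day cannot be told apart. Of the 6 slides, each held 1 LPS and 1 saline array of the same time. Within slides, LPS minus saline at 4 h was 0.84 to 1.03 for Gria1 A_51_P498031, 0.82 to 1.47 for Grik2 A_52_P270135 and -0.42 to -0.34 for Grin2c. Of the 25 probes, 17 were above background on all 12 arrays, 3 were on none of the LPS 4 h arrays and 7 were on none of the saline 4 h arrays. In whole tissue, fewer cells of a type and less RNA per cell cannot be told apart.

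Markers of cell types and of neighbouring tissues differed between the groups. Of 3 markers of CA3 pyramidal cells, Spock1 and Cpne4 were higher (1.53 ± 0.12 and 0.12 ± 0.03) and Bok was lower (-1.22 ± 0.03) in LPS 4 h than in saline 4 h. Together they summed to 59.4 to 61.7 in LPS 4 h, against 132 to 135 in saline 4 h, as a multiple of the 75th percentile. In such sums, here and below, the brightest probes weigh most, so a sum need not follow most of its markers. Of 5 thalamic markers, 2 were higher and 3 lower at 4 h and 5 were higher at 24 h. They summed to 10.1 to 10.3 in LPS 4 h and 14.6 to 15.2 in saline 4 h, and to 6.54 to 6.66 in LPS 24 h and 4.25 to 4.28 in saline 24 h. Pituitary markers (4 of 4) summed to 2.45 to 2.6 in LPS 4 h, where Gh and Cga were below background on all arrays, and to 5.73 to 5.91 in saline 4 h. The granule-cell marker Tdo2 was below background on all saline 4 h arrays, while the other hippocampal markers were above it on at least 1 array of every group. Their part in the results on the subunits was not tested.

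**Figure D1:**
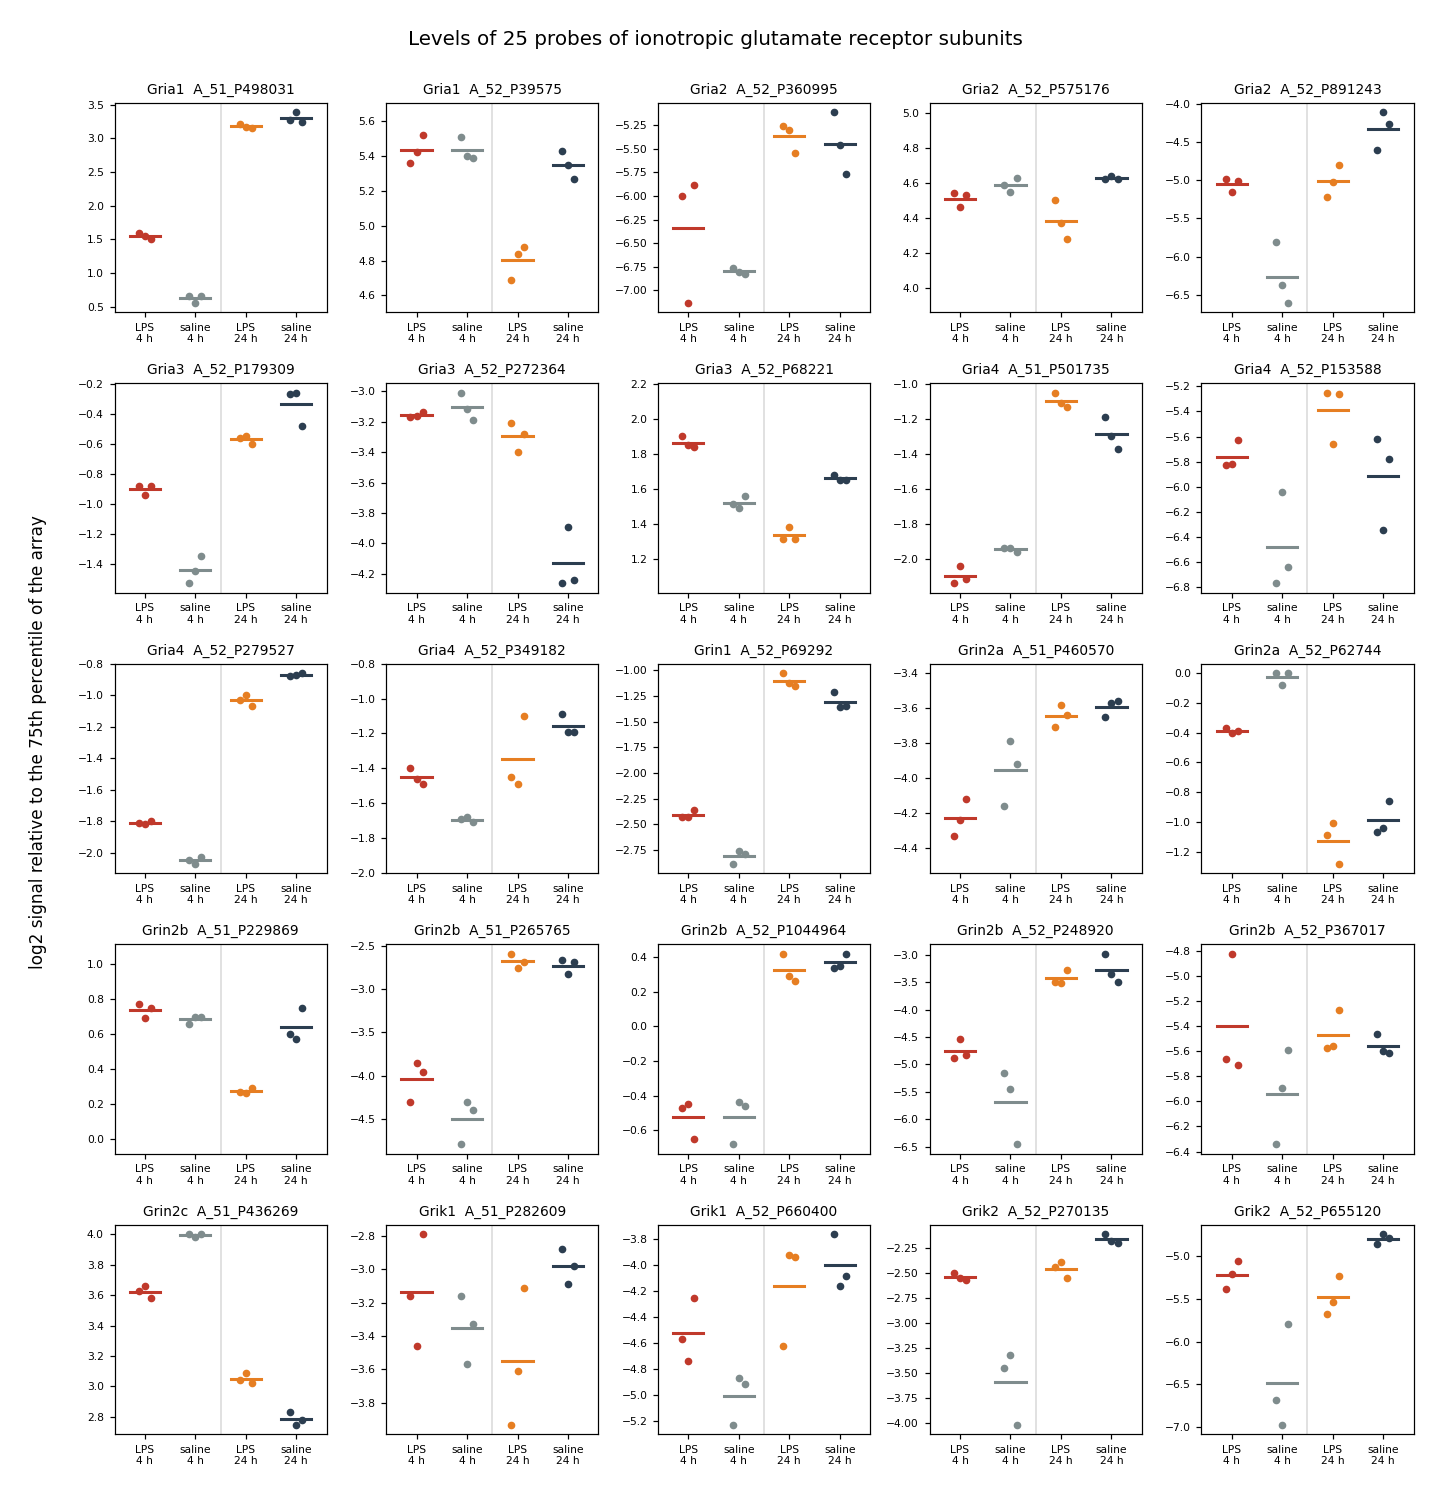
Level of each of the 25 probes on each of the 12 arrays (log2 relative to the array's 75th percentile), by group. Points are arrays, bars are group means, and each panel has its own axis. The strongest Gria1 probe of the 4 h response lay at 1.50 to 1.60 in LPS 4 h, against 0.56 to 0.66 in saline 4 h, and above 3 in both 24 h groups.

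At 4 h, LPS was accompanied by higher signal of 12 probes and lower signal of 4, and 9 did not pass the test. Over all 27681 probes 71.0% were called, 31.6% higher and 39.4% lower. The median log2 difference was 0.35 over the 25 probes, against -0.08 over all probes. The 12 higher probes were 7 of 12 AMPA probes, 3 of 9 NMDA probes and 2 of 4 kainate receptor probes. In 8 of the 12, both groups were measured; in 3 the saline 4 h arrays were all below background, and in 1 both groups were, so that no fold is given for these 4. At 24 h more probes were lower than higher: 4 probes were higher, 8 lower and 13 neither, against 20.8% and 20.9% of all probes higher and lower (41.7% in either direction). The median was -0.16 over the 25 probes and 0.00 over all probes. Of the 8 lower probes, 7 were AMPA probes.

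Among the 17 probes above background on all 12 arrays, 7 were higher and 4 lower at 4 h, with a median of 0.05, against -0.13 over all probes chosen in that way, of which 32.2% were higher and 48.4% lower. With normexp background correction, which shrinks dim signals towards each other, 3 of the 25 were higher and 2 lower at 4 h (16.4% and 26.9% of all probes), and the median was -0.02. With only the brightest probe of each of the 10 genes, 4 were higher and 2 lower at 4 h, with a median of 0.13. Over all genes so measured, 29.3% were higher and 44.5% lower, with a median of -0.15. At 24 h 2 were higher and 4 lower (23.3% and 22.8% of all genes), with a median of -0.27. Other processing also ended many single calls. Of the 12 higher calls at 4 h, 3 stood under every processing alternative, those of Gria1 A_51_P498031 and Gria3 A_52_P179309 and A_52_P68221, as did 1 of the 4 lower calls, Grin2a A_52_P62744. At 24 h, 1 of 4 higher calls (Grin2c) and 2 of 8 lower calls (Gria1 A_52_P39575 and Gria3 A_52_P68221) stood.

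For Gria1, the AMPA subunit most tied to activity-dependent insertion at hippocampal synapses, both probes changed in different ways. Probe A_51_P498031 had levels of 1.60, 1.55 and 1.50 in LPS 4 h, against 0.66, 0.56 and 0.65 in saline 4 h. The groups did not overlap, and the difference was 0.92 ± 0.05 (SE, log2; 1.90-fold, adjusted p = 5.96e-08). At 24 h it had 3.22, 3.17 and 3.15 in LPS 24 h, against 3.28, 3.39 and 3.25 in saline 24 h. This small difference of -0.13 ± 0.05 sat at the threshold (adjusted p = 0.05) and was lost when any 1 of 10 arrays was left out, with an adjusted p of 0.164 without saline 24 h replicate 2; with slide as a block it was 0.102. Probe A_52_P39575, 40.5 kb further along the gene, had 5.36, 5.42 and 5.52 in LPS 4 h and 5.51, 5.40 and 5.39 in saline 4 h, which overlapped (0.00 ± 0.07, adjusted p = 0.985). With quantile normalization and in the deposited matrix this 4 h difference was 0.38 in both and called higher (adjusted p = 0.000483 and 0.000472). In LPS 24 h the same probe had 4.69, 4.84 and 4.88, against 5.43, 5.35 and 5.27 in saline 24 h. All LPS 24 h arrays lay below all saline 24 h arrays, by -0.55 ± 0.07 (adjusted p = 0.000143).

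For Gria3, on the X chromosome, 2 of 3 probes rose at 4 h and fell at 24 h. Probe A_52_P179309 had -0.88, -0.94 and -0.88 in LPS 4 h, against -1.53, -1.45 and -1.35 in saline 4 h. The groups were separate, by 0.54 ± 0.06 (adjusted p = 3.05e-05). Its 24 h levels were -0.56, -0.55 and -0.60 in LPS 24 h, against -0.27, -0.26 and -0.48 in saline 24 h (-0.24 ± 0.06, adjusted p = 0.0145). Without saline 24 h replicate 1 or 2 the 24 h call was lost, with adjusted p = 0.0532 and 0.0544.
Probe A_52_P68221, 23.7 kb further along, had 1.90, 1.85 and 1.84 in LPS 4 h, against 1.51, 1.49 and 1.56 in saline 4 h. It was higher by 0.35 ± 0.03 (adjusted p = 7.04e-06). At 24 h it had 1.31, 1.38 and 1.31 in LPS 24 h, against 1.68, 1.65 and 1.65 in saline 24 h, and was lower by -0.33 ± 0.03 (adjusted p = 4.78e-05).
Probe A_52_P272364, the one lying furthest upstream, did the opposite at 24 h. Its levels were -3.21, -3.40 and -3.28 in LPS 24 h, against -4.26, -3.89 and -4.24 in saline 24 h (0.84 ± 0.09, 1.78-fold, adjusted p = 9.16e-05). At 4 h it had -3.17, -3.16 and -3.14 in LPS 4 h and -3.01, -3.12 and -3.19 in saline 4 h, and did not pass the test (-0.05 ± 0.09, adjusted p = 0.654).

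Gria2, whose edited form blocks calcium entry, was measured well by 1 of its 3 probes at 4 h. Probe A_52_P575176 had 4.54, 4.46 and 4.53 in LPS 4 h and 4.59, 4.55 and 4.63 in saline 4 h, which did not pass the test (-0.08 ± 0.05, adjusted p = 0.205). With quantile normalization its 4 h difference was 0.26, and in the deposited matrix it was 0.27, both called higher; with median centring it was -0.16 and called lower (adjusted p = 0.02). At 24 h the probe had 4.50, 4.37 and 4.28 in LPS 24 h, against 4.62, 4.64 and 4.62 in saline 24 h, and fell by 0.25 on the log2 scale (SE 0.05, adjusted p = 0.00399; 0.225 with normexp and 0.0578 in the deposited matrix). Probe A_52_P891243 had -5.22, -5.02 and -4.80 in LPS 24 h, against -4.61, -4.11 and -4.26 in saline 24 h (-0.69 ± 0.20, adjusted p = 0.0198). That call was lost without either of 2 saline 24 h arrays (replicates 2 and 3) or either of 2 LPS 24 h arrays (replicates 1 and 2), with an adjusted p of 0.0722 without saline 24 h replicate 2. On the 4 h arrays it was above background on 1 LPS array and no saline array. Probe A_52_P360995 was below background on all 4 h arrays, and at 24 h the difference was 0.08 ± 0.29 (adjusted p = 0.859).

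Gria4, which gives fast channels and is prominent in interneurons, had 4 probes with small differences in both directions. Probe A_52_P279527 had -1.81, -1.82 and -1.80 in LPS 4 h, against -2.05, -2.07 and -2.03 in saline 4 h, without overlap (0.24 ± 0.03, adjusted p = 2.23e-05). At 24 h the same probe had -1.03, -1.0 and -1.07 in LPS 24 h, against -0.88, -0.87 and -0.86 in saline 24 h (-0.17 ± 0.03, adjusted p = 0.000869). Probe A_51_P501735, 1.77 kb upstream of it, went the other way at both times. It had -2.14, -2.04 and -2.12 in LPS 4 h, against -1.94, -1.94 and -1.96 in saline 4 h (-0.16 ± 0.05, adjusted p = 0.0137; 0.0506 without LPS 4 h replicate 1). In LPS 24 h it had -1.05, -1.11 and -1.13, against -1.19, -1.30 and -1.37 in saline 24 h (0.19 ± 0.05, adjusted p = 0.00909). Probe A_52_P349182 was higher at 4 h by 0.24 ± 0.09 (adjusted p = 0.035), a call lost without any 1 of the 6 arrays of 4 h, with adjusted p values of 0.0544 to 0.0968, and with slide as a block (0.0593). At 24 h that probe did not pass (-0.19 ± 0.09, adjusted p = 0.12); without LPS 24 h replicate 3 it was lower by -0.32 (adjusted p = 0.000505). Probe A_52_P153588 was below background in both 4 h groups although the test called it higher (adjusted p = 0.0163), and did not pass at 24 h (0.53 ± 0.23, adjusted p = 0.0939). Its 4 h call was lost without saline 4 h replicate 1 or 3 or LPS 4 h replicate 3 (adjusted p of 0.0609, 0.0537 and 0.0524).

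**Figure D2:**
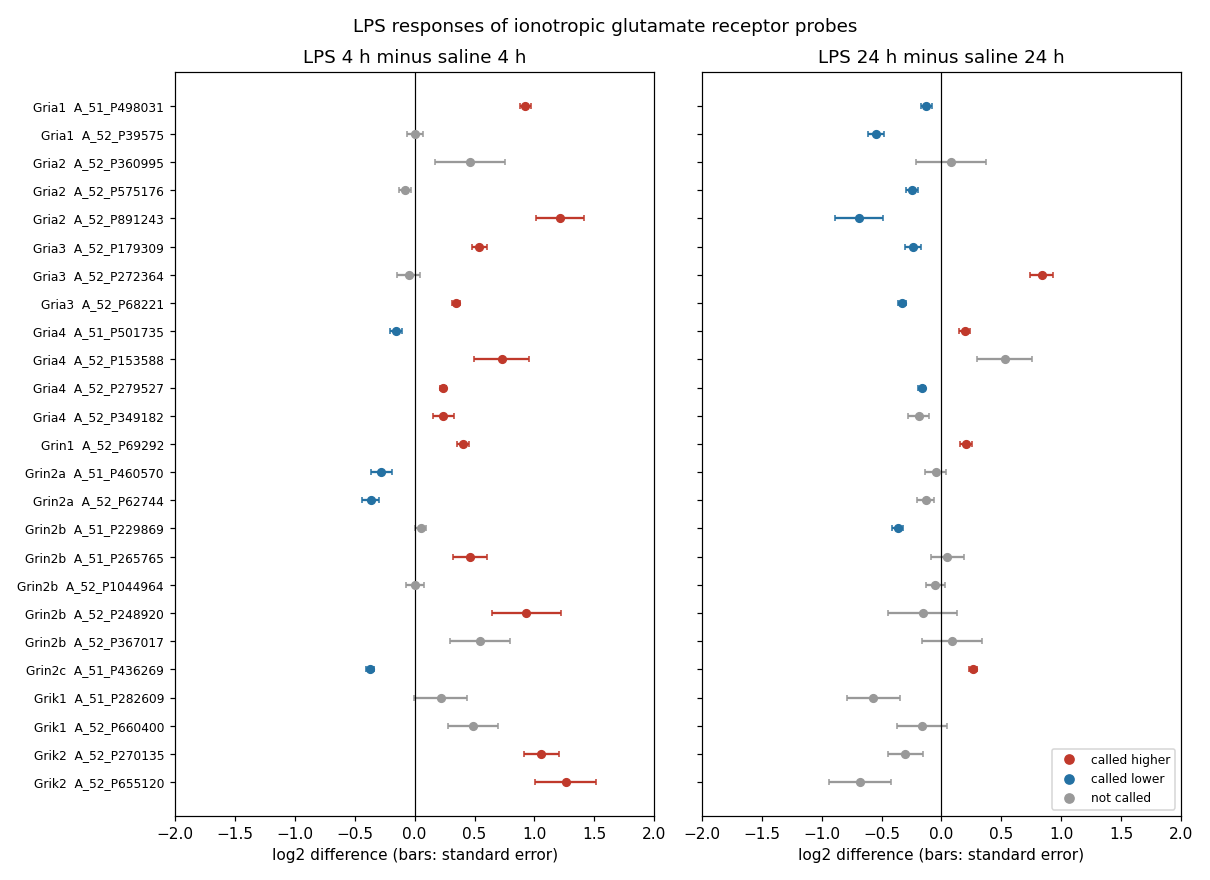
Log2 difference of LPS from saline with its standard error for each probe, at 4 h and at 24 h. Most AMPA probes lie at or right of 0 at 4 h and left of 0 at 24 h; values of probes below background on a whole group's arrays are drawn as fitted and are no measured fold.

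Among the NMDA subunits, Grin1 was the only one of the 25 probes called higher at both times. Its probe had -2.43, -2.43 and -2.36 in LPS 4 h, against -2.88, -2.76 and -2.79 in saline 4 h (0.40 ± 0.05, adjusted p = 6.47e-05). At 24 h it had -1.03, -1.13 and -1.15 in LPS 24 h, against -1.21, -1.36 and -1.35 in saline 24 h (0.20 ± 0.05, adjusted p = 0.0117). With normexp both calls were lost (0.12 and 0.15, adjusted p of 0.411 and 0.478), and in the deposited matrix the 24 h call was (0.11, adjusted p = 0.146). The groups were separate at both times, and the levels of both 24 h groups lay above those of both 4 h groups.

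Grin2c was lower at 4 h and higher at 24 h. Its probe had 3.63, 3.66 and 3.58 in LPS 4 h, against 4.00, 3.98 and 4.00 in saline 4 h (-0.37 ± 0.03, adjusted p = 3.21e-06). It had 3.04, 3.09 and 3.02 in LPS 24 h, against 2.83, 2.75 and 2.78 in saline 24 h (0.26 ± 0.03, adjusted p = 0.000176). No array of one group overlapped the other at either time. In the deposited matrix the 4 h difference was -0.11 and did not pass (adjusted p = 0.0644). The thalamic markers summed above also stood lower in LPS 4 h than in saline 4 h and higher in LPS 24 h than in saline 24 h, although 2 of the 5 were higher at 4 h. Endothelial markers did so too, with sums of 4.01 to 4.41 in LPS 4 h and 28 to 28.9 in saline 4 h, and of 18.2 to 21 in LPS 24 h and 12.8 to 14.2 in saline 24 h. Microglial markers summed to 43.7 to 45.8 in LPS 4 h and 66.7 to 68.4 in saline 4 h, and to 38.1 to 40.5 in LPS 24 h and 23.8 to 24.4 in saline 24 h. Choroid plexus markers summed to 15 to 15.8 in LPS 4 h and 19.3 to 20.4 in saline 4 h, and to 19.4 to 20.8 in LPS 24 h and 14.8 to 15.8 in saline 24 h. Astrocyte markers summed to 207 to 211 in LPS 4 h and 216 to 226 in saline 4 h, and to 197 to 201 in LPS 24 h and 175 to 183 in saline 24 h. By single markers, 3 of 5 astrocyte markers were higher and 2 lower at 4 h, and 4 were higher and 1 lower at 24 h. Among endothelial markers, 1 of 4 was higher and 3 lower at 4 h, and 4 were higher at 24 h. Among microglial markers, 1 of 5 was higher and 3 lower at 4 h, and 4 were higher and 1 lower at 24 h. Among choroid plexus markers, 1 of 3 was higher and 2 lower at 4 h, and 2 were higher at 24 h. CA3 sums also stood lower at 4 h and higher at 24 h, but not all lists did so. Oligodendrocyte sums were lower with LPS at 4 h (173 to 174 against 203 to 207) and also at 24 h. Precursor sums overlapped at 24 h (3.76 to 3.79 against 3.68 to 3.8). Neuronal, CA1 and pituitary sums were lower at both times. Granule-cell, interneuron and neocortex sums were higher at 4 h and lower at 24 h. No list held cerebellar markers. The part of these markers in the Grin2c result was not tested.

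Grin2a, which gives NMDA receptors fast decay in mature synapses, was lower with both probes at 4 h. Probe A_52_P62744 had -0.37, -0.40 and -0.39 in LPS 4 h, against 0.00, -0.08 and 0.00 in saline 4 h (-0.37 ± 0.07, adjusted p = 0.00117). Probe A_51_P460570, 414 kb downstream, had -4.33, -4.24 and -4.12 in LPS 4 h and -4.16, -3.79 and -3.92 in saline 4 h. The arrays of the second probe overlapped (-0.28 ± 0.09, adjusted p = 0.0186), and its call was lost without saline 4 h replicate 2 or 3 or LPS 4 h replicate 1 (adjusted p of 0.0686, 0.0531 and 0.0704) and with slide as a block (0.0641). At 24 h neither probe passed, with differences of -0.13 ± 0.07 (adjusted p = 0.177) and -0.05 ± 0.09 (adjusted p = 0.701).

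Grin2b, the subunit of slowly decaying receptors, had 5 probes that did not move together. Probe A_51_P229869, the one furthest upstream, had 0.27, 0.26 and 0.29 in LPS 24 h, against 0.60, 0.57 and 0.75 in saline 24 h (-0.37 ± 0.05, adjusted p = 0.000207). At 4 h it had 0.77, 0.69 and 0.75 in LPS 4 h and 0.66, 0.70 and 0.70 in saline 4 h, which overlapped (0.05 ± 0.05, adjusted p = 0.354). Probe A_51_P265765 had -4.30, -3.85 and -3.96 in LPS 4 h and -4.79, -4.31 and -4.40 in saline 4 h, where 2 of 3 arrays were above background. It was called higher by 0.46 ± 0.14 (adjusted p = 0.0132; 0.0515 without LPS 4 h replicate 2). Probe A_52_P248920 was above background on all LPS 4 h arrays, at -4.88, -4.54 and -4.83, and on none of the saline 4 h arrays; its adjusted p was 0.0153, and 0.0512 without LPS 4 h replicate 2. At 24 h these 2 probes did not pass (0.05 ± 0.14 and -0.16 ± 0.29). Probe A_52_P1044964 passed at neither time (0.00 ± 0.08 at 4 h and -0.05 ± 0.08 at 24 h). Probe A_52_P367017 was below background on all 4 h arrays and did not pass at 24 h (0.09 ± 0.25); its 4 h test passed without saline 4 h replicate 3 or LPS 4 h replicate 3 (adjusted p of 0.0341 and 0.0424) and with slide as a block (0.0122).

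Grik2, a pore-forming kainate receptor subunit of CA3, rose more than 2-fold at 4 h by the probe measured in both groups. Probe A_52_P270135 had -2.50, -2.55 and -2.57 in LPS 4 h, against -3.45, -3.32 and -4.02 in saline 4 h (1.06 ± 0.15, 2.08-fold, adjusted p = 9.69e-05). All LPS arrays were higher, although saline 4 h replicate 3 stood apart from its group and the difference was 0.85 without it. With normexp it was 0.35 (adjusted p = 0.0641), and in the deposited matrix 0.47. At 24 h it had -2.44, -2.39 and -2.55 in LPS 24 h, against -2.11, -2.18 and -2.20 in saline 24 h, and did not pass (-0.30 ± 0.15, adjusted p = 0.133), though without saline 4 h replicate 3 in the fit it did (adjusted p = 0.00237). Probe A_52_P655120 was above background on 1 LPS 4 h array and no saline 4 h array, and the test called it higher (adjusted p = 0.00135). Its levels were -5.67, -5.54 and -5.23 in LPS 24 h, against -4.86, -4.74 and -4.79 in saline 24 h. These groups did not overlap, yet the test missed the threshold (-0.68 ± 0.26, adjusted p = 0.0582; 0.0304 and 0.00304 without saline 4 h replicate 2 and 3). Of the 3 CA3 markers, 2 were higher and 1 lower at 4 h.

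Grik1, the other kainate receptor gene, found mainly in interneurons, passed at neither time with either probe in the fit used here. Probe A_51_P282609 differed by 0.22 ± 0.22 at 4 h (adjusted p = 0.397) and by -0.57 ± 0.22 at 24 h (adjusted p = 0.0636). Without LPS 24 h replicate 3 the 24 h difference was -0.79 (adjusted p = 0.0126), and without LPS 4 h replicate 3 the adjusted p was 0.0492. It was also called lower with quantile normalization, median centring, the deposited matrix, the stricter filter, the replicate block and an intensity trend (adjusted p of 0.0143 to 0.0454). Probe A_52_P660400 was above background on 2 LPS 4 h arrays and no saline 4 h array, and did not pass (adjusted p = 0.0598). Its bound was 1.16-fold higher, but the LPS 4 h mean behind that bound includes an array below background. With normexp the 4 h difference was -0.10 (adjusted p = 0.75). At 24 h the probe differed by -0.16 ± 0.21 (adjusted p = 0.578). Its 4 h test passed without LPS 4 h replicate 2 (adjusted p = 0.045) or LPS 24 h replicate 1 (0.0185).

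The response at 24 h minus the response at 4 h was tested as 1 contrast, which rests on all 4 groups and both scan days. It was lower for 13 probes, higher for 3 and neither for 9, while 28.3% of all probes were lower and 37.6% higher (65.9% in either direction). The median of this difference was -0.42 over the 25 probes and 0.11 over all probes. Gria1 A_51_P498031 (-1.05 ± 0.06, adjusted p = 4.31e-07) and Gria3 A_52_P68221 (-0.67 ± 0.05, adjusted p = 1.07e-06) stood among the lower ones. Grin2c (0.63 ± 0.05, adjusted p = 1.32e-06), Gria3 A_52_P272364 (0.89 ± 0.13, adjusted p = 0.00023) and Gria4 A_51_P501735 (0.35 ± 0.07, adjusted p = 0.00113) were the 3 higher ones. By pairs of calls, 5 probes were higher at 4 h and lower at 24 h, 6 were higher at 4 h with no call at 24 h, 3 were lower at 24 h with no call at 4 h, and 5 had no call at either time.

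The saline groups also differed from each other. Saline 24 h was higher than saline 4 h for 17 of the 25 probes and lower for 3, with 5 neither, while 38.0% of all probes were higher and 41.5% lower (79.5% in either direction). For 6 of these higher calls all saline 4 h arrays were below background, and these probes passed the filter only through other groups. Among the 17 probes above background on all 12 arrays, 10 were higher and 3 lower, with a median of 0.37. Over all probes chosen in that way, 35.9% were higher and 50.9% lower, with a median of -0.16. With only the brightest probe of each of the 10 genes, 4 were higher and 2 lower, with a median of 0.09. Over all genes so measured, 32.3% were higher and 48.4% lower, with a median of -0.16. The median was 0.66 over the 25 probes, against -0.02 over all probes, and 13 of the 25 differed by 2-fold or more as fitted, as did 29.3% of all probes. Of these 13, 8 were measured in both groups and 1 was at least 2.75-fold higher (Grin2b A_52_P248920). The other 4 were below background on all saline 4 h arrays, with bounds under 2-fold. Gria1 A_51_P498031 was 6.41-fold higher in saline 24 h than in saline 4 h (2.68 ± 0.05 on the log2 scale, adjusted p = 3.49e-11). Grin1 was higher by 1.50 ± 0.05 (2.83-fold, adjusted p = 1.96e-09). Grin2c was lower by -1.21 ± 0.03 (2.31-fold, adjusted p = 3.47e-10). Gria2 A_52_P575176, Gria1 A_52_P39575 and Grin2b A_51_P229869 differed by 0.04 ± 0.05, -0.08 ± 0.07 and -0.05 ± 0.05 and did not pass. With normexp background correction 9 of the 25 were higher and 7 lower (20.1% and 55.9% of all probes), and the median was 0.01, against -0.43 over all probes. With median centring 15 were higher and 5 lower (33.9% and 45.7% of all probes). The median was then 0.55 over the 25 probes, and that of all probes moved to -0.12. Time after injection and scan day cannot be told apart in these values.

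The mean of LPS 4 h lay between the means of both saline groups for 17 of the 25 probes (68.0%), and for 53.1% of all probes. This held for 10 of the 12 probes called higher at 4 h and for 2 of the 4 called lower. A call already fixes on which side of saline 4 h the LPS 4 h mean lies. The share among all probes so called was not counted, so these counts have no comparison. Set against saline 24 h, LPS 4 h was higher for 4 probes and lower for 14, while 35.5% of all probes were higher and 35.4% lower (70.8% in either direction). With only the brightest probe of each of the 10 genes, 3 were higher and 3 lower in this comparison, with a median of -0.02. Gria1 A_51_P498031 was then lower by -1.76 ± 0.05, Grin1 by -1.10 ± 0.05 and Grik2 A_52_P270135 by -0.38 ± 0.15 (adjusted p of 8.26e-10, 4.72e-08 and 0.0414), and Grin2c was higher by 0.84 ± 0.03 (adjusted p = 1.12e-08). Gria3 A_52_P68221 was higher in LPS 4 h than in either saline group, by 0.20 ± 0.03 against saline 24 h (adjusted p = 0.000387). LPS 24 h set against saline 4 h was higher for 16 probes and lower for 6, while 39.9% of all probes were higher and 40.0% lower (79.9% in either direction). Both of these comparisons cross the scan days.

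**Figure D3:**
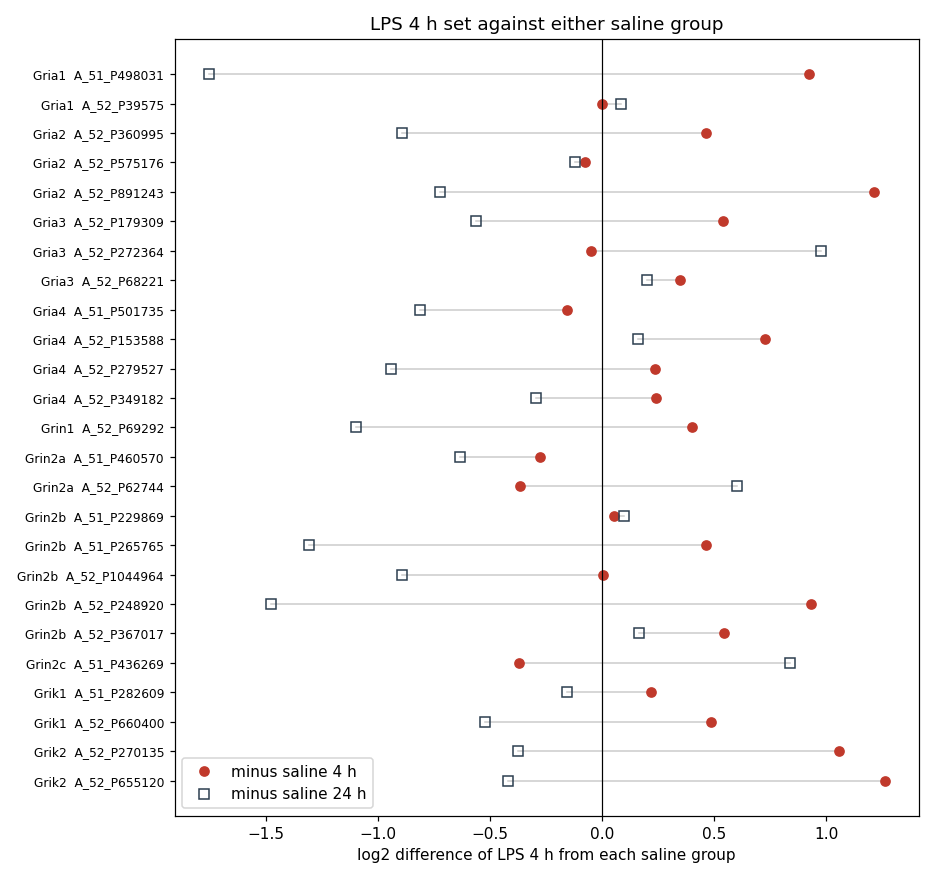
Log2 difference of LPS 4 h from saline 4 h (filled circles) and from saline 24 h (open squares) for each probe; grey lines join both values of a probe, and probes below background are drawn as fitted. Gria1 A_51_P498031 lies at 0.92 and -1.76, whereas Gria3 A_52_P68221 lies at 0.35 and 0.20.

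Probes of 1 gene often differed in these arrays. Of 6774 genes with several tested probes in the whole series, 1161 (17.1%) had probes called in both directions at 4 h and 209 (3.09%) at 24 h. Among the subunits, Gria4 was called in both directions at 4 h, and Gria3 and Gria4 were at 24 h. Which transcript form each probe reads was not tested, and no exon or untranslated region is assigned here.

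Genes that work with these receptors were followed with 1 probe per gene, the brightest. Over all 18192 genes so measured, 29.3% were higher and 44.5% lower at 4 h, and 23.3% were higher and 22.8% lower at 24 h. Of 7 other ionotropic subunits, 2 were higher and 4 lower at 4 h, and 1 was higher and 5 lower at 24 h. Grin3a, an NMDA subunit that lowers calcium entry, was higher at 4 h by 0.90 ± 0.03 (adjusted p = 8.16e-09) and lower at 24 h by -0.25 ± 0.03 (adjusted p = 0.000272). Grin3b was lower at 4 h (-0.82 ± 0.05) and higher at 24 h (0.29 ± 0.05). Set against saline 24 h, LPS 4 h turned for both, to -0.87 for Grin3a and 1.69 for Grin3b (adjusted p of 8.73e-09 and 1.2e-09). Grik5, a kainate receptor subunit that joins Grik1 or Grik2, was higher at 4 h against saline 4 h (0.19 ± 0.04) and against saline 24 h (0.26), and lower at 24 h (-0.27 ± 0.04). Grik4 was lower at 24 h (-0.35 ± 0.06).

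Auxiliary subunits, which traffic the receptors and shape their gating, divided at 4 h: 7 were higher and 6 lower of 15. Among them, Cacng8 was below background on all saline 4 h arrays. Olfm1, an AMPA receptor partner, was higher by 1.35 ± 0.05, and Neto2, a kainate receptor partner, by 0.87 ± 0.04. Shisa9 and Cnih3, both AMPA receptor partners, were lower by -1.39 ± 0.04 and -0.94 ± 0.04. Against saline 24 h, LPS 4 h was lower for Olfm1 (-0.69), Neto2 (-0.67) and Shisa9 (-0.29), and Cnih3 did not pass (0.08, adjusted p = 0.0933). At 24 h 4 were higher and 7 lower. Neto2 (-0.50 ± 0.04), Cacng2, the TARP called stargazin (-0.45 ± 0.05), and Cnih2 (-0.27 ± 0.03) were lower, and Nptx2, a secreted protein that clusters AMPA receptors, was higher (0.31 ± 0.03).

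Of 17 scaffolds and signalling partners, 9 were higher and 4 lower at 4 h, whereas at 24 h 0 were higher, 10 lower and 7 neither. Shank2 and Grip2 were below background on all saline 4 h arrays, and Grip2 on all LPS 4 h arrays too. Dlg4 (PSD-95), which anchors NMDA receptors, was higher by 1.38 ± 0.04 at 4 h and lower by -0.47 ± 0.04 at 24 h. Camk2a, the kinase that acts downstream of NMDA receptors, was higher by 1.01 ± 0.03 and lower by -0.38 ± 0.03. Shank1 and Shank3 were higher at 4 h (1.37 ± 0.10 and 0.81 ± 0.05), and Camk2b and Dlgap1 were lower at 24 h (-0.32 ± 0.04 and -0.24 ± 0.03). Set against saline 24 h, LPS 4 h was lower for Dlg4 (-1.99), Camk2a (-0.53) and Shank3 (-0.76), the other direction from the comparison within 4 h, and Shank1 did not pass (-0.06, adjusted p = 0.629). Of the RNA editing enzymes, Adar was higher (0.90 ± 0.05) and Adarb1, the editor of Gria2, lower (-0.68 ± 0.05) at 4 h, and both turned against saline 24 h (-0.30 and 0.16). At 24 h Adarb2 and Adar were lower (-0.55 ± 0.05 and -0.19 ± 0.05).

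Most neuronal markers were lower at 24 h. Of 7 measured, 0 were higher and 5 lower at 24 h, and they summed to 153 to 160 in LPS 24 h, against 178 to 186 in saline 24 h. Granule-cell markers were lower at 24 h for 3 of 4, with 0 higher, and CA1 markers for 3 of 3. CA3 markers did not follow, with 1 higher, 1 lower and 1 neither at 24 h. They summed to 39.3 to 41.5 in LPS 24 h, against 38.3 to 39 in saline 24 h. At 4 h, 2 neuronal markers were higher and 2 lower, and their sum was 156 to 157 in LPS 4 h and 172 to 173 in saline 4 h. The part of these markers in the receptor results was not tested.

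Over the 12 arrays, the genes whose levels were most like Gria2 A_52_P575176 were Cldn22 (Pearson r = 0.93), Alas2 (0.911) and N28178 (0.908). Those most like Grin1 were Mier2 (0.999), Xpnpep1 (0.997) and Ldb1 (0.997). The arrays of a group share treatment, time and scan day, so these values describe the 12 arrays and carry no test.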

How the data were processed

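Expression was measured on 12 one-colour Agilent arrays, from RNA that, per the labels' protocols, had a high integrity number. The deposited files hold an intensity for each of 45018 spots. Background subtraction and spatial detrending had been done in Agilent Feature Extraction, version 10.7.3.1 per the file headers and version 9.1 per the submitters' processing notes. Probe positions are on mm9, per the file headers. The authors' deposited matrix holds log2 values, which equalled normexp (offset 50) plus quantile normalization of the raw intensities for single-spot probes.

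Here 926 spots marked as outliers were dropped, log2 of the processed intensity was averaged over a probe's spots, and every array was centred on its 75th percentile. No spot was saturated (0 spots). A group-means model of all 12 arrays was fitted by limma (version 3.58.1, R version 4.3.3). Calls used a two-sided Benjamini-Hochberg adjusted p under 0.05 over 27681 probes. Adjusted p values are from this fit unless another setting or a left-out array is named, in which case they are from the fit so changed. Errors are the SE of the main fit. A probe dim on every array of 1 group gets only a bound, and no fold where the bound is under 1. The labels name 3 samples per group without further identity, so p-values measure the spread between these samples, and 3 arrays limit the precision. The fit was also run on simulated data with independent noise and no background floor, which cannot test it for dim probes.

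All member probes are described. Of each list of related genes, up to 4 with the smallest adjusted p among called genes are named per comparison. Some items are not reported here. The genes most like Gria2 and Grin1 are the 3 with the highest Pearson r. Members and lists were chosen with earlier results of these data known. Alternatives changed the background correction, the scaling, the filter, the rule for probes, the blocks and the source table (the deposited matrix), and also used the saline arrays of the other time or left out each array. Same-numbered arrays did not deviate together in every pair (correlations from -0.151 to 0.165), so replicate numbers were not used as pairs.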

Additional observations from a re-analysis of the deposited data

Results flagged for a closer look

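For 16 of the 25 probes the LPS response at 24 h differed from that at 4 h in the test of the difference itself (log2, 24 h response minus 4 h response, limma adjusted p under 0.05). The same test called 65.9% of all 27681 probes, so this count is near the share over all probes. The kainate receptor values were -1.94 and -1.36 for Grik2 A_52_P655120 and A_52_P270135 and -0.79 for Grik1 A_51_P282609. Among AMPA probes they were -1.90 for Gria2 A_52_P891243, -1.05 and -0.55 for Gria1 A_51_P498031 and A_52_P39575, -0.78, -0.67 and 0.89 for Gria3 A_52_P179309, A_52_P68221 and A_52_P272364, and -0.43, -0.40 and 0.35 for Gria4 A_52_P349182, A_52_P279527 and A_51_P501735. Among NMDA probes they were -1.09 and -0.42 for Grin2b A_52_P248920 and A_51_P229869, -0.20 for Grin1 and 0.63 for Grin2c. Grik2 A_52_P655120, Gria2 A_52_P891243 and Grin2b A_52_P248920 were below background on all saline 4 h arrays, so that their values are fitted and not measured folds.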

How the results depend on the processing

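With normexp background correction, 5 of the 25 probes were called at 4 h, 3 at 24 h and 6 for the difference between times (11983, 4100 and 10147 of all probes), against 16, 12 and 16. With 1 probe per gene, 6, 6 and 8 of 10 were called, and 6 between the saline groups (73.8%, 46.1%, 68.9% and 80.7% of all genes); of the 17 probes above background on all arrays, 13 were called between the saline groups (86.8% of all such probes). With saline 4 h as the controls of LPS 24 h, 22 of the 25 probes and 22122 of all probes were called. Leaving out 1 array gave 13 to 17 calls at 4 h, 9 to 13 at 24 h, 13 to 16 for the difference and 19 to 20 between the saline groups (18731 to 19848, 9993 to 11798, 17528 to 18237 and 21181 to 22092 of all probes). The replicate block, which the check of numbers did not bear out as a pairing, gave 15, 13, 15 and 19 calls (19382, 10864, 17937 and 21781 of all probes). With slide as a block 15, 11 and 14 were called (71.0%, 40.7% and 65.8% of all probes). Between the saline groups 20 were called with slide as a random block (79.3% of all probes).

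At 4 h, normexp turned Gria4 A_52_P153588 to -0.038, Grik2 A_52_P655120 to -0.021, and Grin2b A_52_P248920 and Gria2 A_52_P891243 both to -0.11. Gria2 A_52_P575176 turned to 0.26 with quantile normalization and 0.27 in the deposited matrix. A probe is said to turn if its sign changed and either fit called it, so a turn need not start from a call. The share of all probes that turned was not counted. Against saline 24 h, LPS 4 h turned for 16 probes: Grin2c 0.84, Gria3 A_52_P272364 0.98 and Grin2a A_52_P62744 0.60 became positive. Gria1 A_51_P498031 -1.76, Gria2 A_52_P360995 -0.89 and A_52_P891243 -0.73, Gria3 A_52_P179309 -0.56, Gria4 A_52_P279527 -0.94 and A_52_P349182 -0.29, Grin1 -1.10, Grin2b A_51_P265765 -1.31, A_52_P1044964 -0.89 and A_52_P248920 -1.48, Grik1 A_52_P660400 -0.52, and Grik2 A_52_P270135 -0.38 and A_52_P655120 -0.42 became negative. Of these 16, Gria2 A_52_P360995, Gria3 A_52_P272364, Grin2b A_52_P1044964 and Grik1 A_52_P660400 had no call within 4 h. Grik2 A_52_P655120 had no call against saline 24 h. Against saline 4 h, LPS 24 h turned for 13 probes: Grin2c -0.95 and Gria3 A_52_P272364 -0.19 became negative. Gria1 A_51_P498031 2.55, Gria2 A_52_P891243 1.24, Gria3 A_52_P179309 0.87, Gria4 A_52_P279527 1.01 and A_52_P349182 0.34, Grin2a A_51_P460570 0.31, Grin2b A_52_P1044964 0.85 and A_52_P248920 2.25, Grik1 A_52_P660400 0.84, and Grik2 A_52_P270135 1.13 and A_52_P655120 1.00 became positive. Of these 13, Gria4 A_52_P349182, Grin2a A_51_P460570, Grin2b A_52_P1044964 and A_52_P248920, Grik1 A_52_P660400 and both Grik2 probes had no call within 24 h. Gria3 A_52_P272364 had no call against saline 4 h. Of these fitted values, those of Gria2 A_52_P891243 and Grik2 A_52_P655120, dim on all saline 4 h arrays, allow no fold, and those of Grik1 A_52_P660400 and Grin2b A_52_P248920 only at least 1.49-fold and 2.47-fold higher; likewise Gria2 A_52_P360995 allows none in LPS 4 h against saline 24 h. The cause was not tested. Probes near background limit what these arrays measure at 4 h, since 7 of the 25 were below it on all saline 4 h arrays.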
